A study of Ovis aries with 20 samples.

Results

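The genes described here are those with a lower median under restricted feeding in both the jejunum and the ileum of pregnant ewes. The genes were chosen by their deposited levels. A gene was taken when its normally fed median plus 1 FPKM was at least 1.5 times its restricted median plus 1 FPKM in each segment. FPKM gives the fragments of a gene relative to its transcript length and to the size of the library. The mean in the normally fed ileum, plus 1 FPKM, also had to lie between 0.5 and 2 times that in the normally fed jejunum. Genes with a larger difference between the segments under normal feeding were thus left out. The rule gave 192 genes of the 17683 listed in both segments and of 18426 listed in all. The members were thus selected on both feeding differences, so the size of these is given as a description and not as a tested result.

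The jejunum is the middle and the ileum the last part of the small intestine. Their inner lining is renewed continually from dividing cells at the base of the crypts, and it carries the enzymes and transporters that take up nutrients. The gut lining shrinks and is renewed more slowly when less feed passes, which is known for many mammals. Late pregnancy adds the demand of the fetus to that of the ewe.

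Total RNA of the jejunum or the ileum was sequenced from wild-type Hu sheep, a Chinese breed, at 115 days of gestation. The 20 libraries form 4 groups of 5, which are the restricted jejunum (J-TR), the normally fed jejunum (J-CON), the restricted ileum (I-TR) and the normally fed ileum (I-CON). All ewes were pregnant, and feeding and segment are the sole differences between groups that the labels give. A general note speaks of restricted feeding for all samples, so the feeding label of each sample was used. How strong the restriction was and how long it lasted is not given in the sources used here. Neither is the number of ewes, so the spread between libraries may be in part technical. A lower value in bulk tissue can come from fewer cells of a type or from less RNA per cell, and these cannot be told apart here.

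The files name each gene by the word gene and a number with no gene name beside it. None of them matched an identifier in the sheep RefSeq gene table, so no names, functions, sequences or pathway lists could be attached, and the segment labels could not be checked against marker genes. The 2 IDs printed are gene28839, with the largest difference among genes whose feeding groups did not overlap in either segment, and gene10000, the most abundant. Other genes are called by their rank in level, from 1 for the highest mean over the 10 normally fed libraries to 192.

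The restricted libraries numbered 2 stood apart. Across 13279 genes, J-TR2 correlated with I-TR2 at r = 0.977, but with the other jejunal libraries at 0.860 to 0.933. I-TR2 correlated with the other ileal libraries at 0.851 to 0.949. Without both libraries the rule gave 182 genes, and 136 of the 192 were among them. Relative depth, estimated from the lowest values and set to 1 for J-CON1, averaged 0.973 ± 0.041 in J-TR and 1.06 ± 0.14 in J-CON, and 1.02 ± 0.047 in I-TR and 0.932 ± 0.025 in I-CON (SD, n = 5 each). Each estimate came from the 4.13% to 8.43% of 321 to 453 low-value ratios to J-CON1 that lay at their most frequent value. The part of depth in the feeding differences was not tested.

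The jejunal ratio alone was met by 512 genes and the ileal ratio alone by 572, and 215 met both, which is 42.0% of the jejunal and 37.6% of the ileal genes. Of these 215, 23 were left out by the limit on the segments, 16 of them with more in the ileum and 7 with more in the jejunum. With the ratios turned round, 82 genes were higher under restriction in both segments. That number was 137 without J-TR2, 140 without J-TR5 and 168 without both libraries numbered 2, where 194, 216 and 182 genes were lower. Opposite differences of this size were rarer. Without the limit on the segments, 18 genes were lower in the restricted jejunum and higher in the restricted ileum, and 13 showed the reverse. Counted in this way, 215 genes were lower and 120 higher in both segments.

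**Figure D1:**
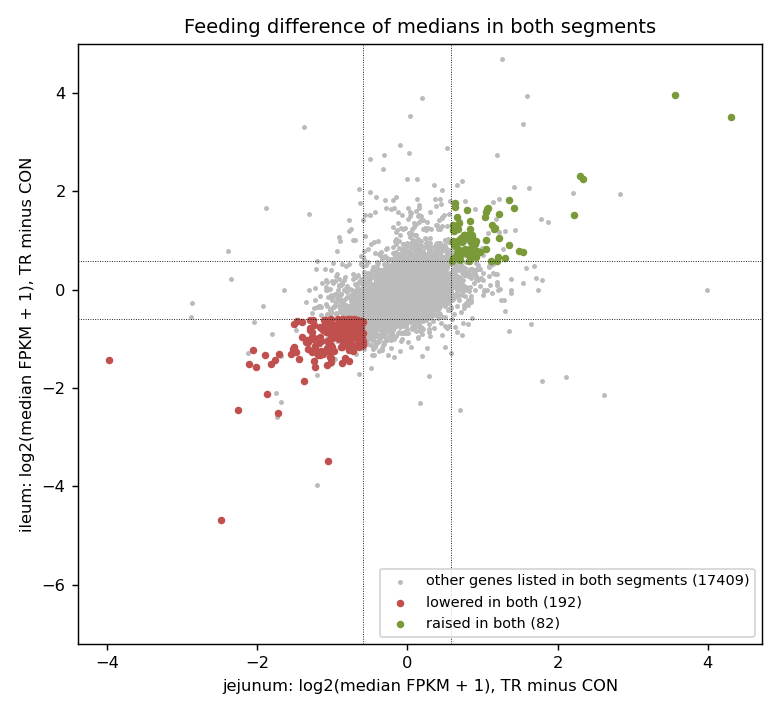
Restricted (TR) minus normally fed (CON) difference of log2(median FPKM + 1) in jejunum (horizontal) and ileum (vertical), 1 point per gene listed in both segments; dotted lines mark a ratio of 1.5. The 192 genes described here (red) lie in the lower left corner, and the 82 raised in both (green) lie opposite. Grey points in these corners are genes left out by the limit on the segments.

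The threshold cut through a continuous range of values. The 3 genes just inside had a smaller ratio of 1.5004, 1.502 and 1.504, and the 3 just outside had 1.499, 1.497 and 1.497. In 63 of the 192 the smaller ratio was under 1.6, and 106 further genes had a smaller ratio from 1.4 to under 1.5. The number also depended on the value added to each median. With 0.1 FPKM in place of 1 FPKM, 484 genes met the rule, 187 of the 192 among them.

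Most differences were moderate and of like size in both segments. The rule cut the differences at the same ratio in each segment. The choice of genes therefore bears on this likeness, and nothing is read from it. On the log2(median FPKM + 1) scale, which understates the difference of low genes, the median gene was lower by a difference of -0.88 in the jejunum and -0.87 in the ileum. The range was -3.97 to -0.59 in the jejunum and -4.69 to -0.59 in the ileum. The ratio of normally fed to restricted medians reached 2 for 76 genes in the jejunum and 70 in the ileum, and for 47 in both. It reached 4 for 6 genes in the jejunum and 5 in the ileum. The difference was larger in the jejunum for 98 genes and larger in the ileum for 94, and in 116 the segments lay within 0.25 of each other on this log2 scale.

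The 192 genes ranged widely in abundance. Their mean level over the normally fed libraries had a median of 9.13 FPKM, against 9.94 FPKM for the 13279 genes that reached 1 FPKM in 5 or more of the 20 libraries. The quartiles were 4.13 and 20.6 FPKM, against 4.17 and 22.5 FPKM. By class, 62 of the 192 were under 5 FPKM, 79 from 5 to under 20 FPKM, 44 from 20 to under 100 FPKM and 7 at 100 FPKM or more. These are shares of 32.3%, 41.1%, 22.9% and 3.65%, against 29.3%, 42.7%, 23.2% and 4.81% of the 13279 genes. The levels thus differed little from those of the 13279 genes. The 1 FPKM added to each median in the rule holds back genes of low level. The choice of genes therefore bears on these shares, and nothing further is read from them.

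The most abundant gene was gene10000, with 746, 509, 676, 668 and 1093 FPKM in J-TR libraries 1 to 5, against 1145, 1289, 1106, 1362 and 1179 FPKM in J-CON. The ileal values were 772, 444, 704, 564 and 1207 FPKM in I-TR, against 1131, 1360, 1055, 941 and 1676 FPKM in I-CON. In the jejunum all 5 restricted libraries lay below all 5 normally fed ones. The ileal groups overlapped through I-TR5, which exceeded 3 of the 5 normally fed libraries. The group means were 738 ± 216 FPKM in J-TR and 1216 ± 106 FPKM in J-CON, and 739 ± 291 FPKM in I-TR and 1233 ± 291 FPKM in I-CON (SD, n = 5 each). The differences of medians on the log2 scale were -0.80 and -0.68.

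The second in level had 624, 433, 647, 562 and 909.5 FPKM in J-TR, against 1002, 1110, 818, 1102 and 909.9 FPKM in J-CON. Its ileal levels were 585, 389, 631, 373 and 841 FPKM in I-TR, against 1036, 1350, 1099, 899 and 1438 FPKM in I-CON. Library 5 was the highest restricted library in each segment for both of these genes, and library 2 or 4 the lowest. In the jejunum J-TR5 lay above J-CON3, and in the ileum the groups did not overlap.

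The third in level had 268, 162, 287, 215 and 196 FPKM in J-TR, against 449, 608, 392, 312 and 278 FPKM in J-CON. The ileum had 312, 159, 298, 188 and 188.5 FPKM in I-TR, against 400, 578, 362, 240 and 408 FPKM in I-CON. Here library 5 was not the highest restricted one, and the groups overlapped in both segments, through J-TR3 in the jejunum and through I-TR1 and I-TR3 in the ileum.

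gene28839 had 2.93, 2.61, 0.578, 1.39 and 8.57 FPKM in J-TR, against 14.7, 17.2, 16.2, 16.1 and 16.6 FPKM in J-CON. Ileal values were 11.0, 0.913, 1.02, 2.002 and 11.9 FPKM in I-TR, against 15.3, 22.0, 12.4, 13.9 and 15.99 FPKM in I-CON. The groups did not overlap in either segment, but the restricted libraries were far from even. Ileal libraries 1 and 5 and jejunal library 5 lay nearest the normally fed level. The means were 3.21 ± 3.14 FPKM in J-TR and 16.2 ± 0.93 FPKM in J-CON, and 5.38 ± 5.6 FPKM in I-TR and 15.9 ± 3.66 FPKM in I-CON (SD, n = 5 each). The differences of medians on the log2 scale were -2.26 and -2.44.

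The next genes by this measure were steadier within groups. The one ranked 23 in level had 12.0, 11.3, 5.90, 5.19 and 7.87 FPKM in J-TR, against 34.9, 26.4, 47.1, 45.4 and 33.9 FPKM in J-CON. In the ileum it had 45.6, 15.9, 21.8, 16.8 and 37.5 FPKM in I-TR, against 67.2, 73.4, 63.0, 62.6 and 92.8 FPKM in I-CON. All restricted libraries were below all normally fed ones of the segment, and ileal levels exceeded jejunal ones under both feeds. The gene ranked 38 had 11.6, 7.49, 2.98, 5.11 and 5.81 FPKM in J-TR, against 22.9, 19.1, 26.1, 27.8 and 20.5 FPKM in J-CON. For the ileum these were 17.2, 11.8, 7.85, 9.71 and 25.8 FPKM in I-TR, against 36.0, 35.5, 31.1, 31.8 and 46.7 FPKM in I-CON. Its groups also did not overlap. For both genes library 1 was the highest restricted jejunal library, and libraries 1 and 5 were the highest of the restricted ileum.

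The gene ranked 52 repeated this order at lower levels, with means of 4.45 ± 1.78 FPKM in J-TR and 15.1 ± 2.85 FPKM in J-CON, and 10.2 ± 4.47 FPKM in I-TR and 23.3 ± 4.63 FPKM in I-CON (SD, n = 5 each). The gene ranked 150 was the least abundant of the 5 with the largest differences among genes without overlap. Its means were 0.711 ± 0.372 FPKM in J-TR and 3.02 ± 0.85 FPKM in J-CON, and 1.10 ± 0.67 FPKM in I-TR and 4.31 ± 1.38 FPKM in I-CON (SD, n = 5 each).

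**Figure D2:**
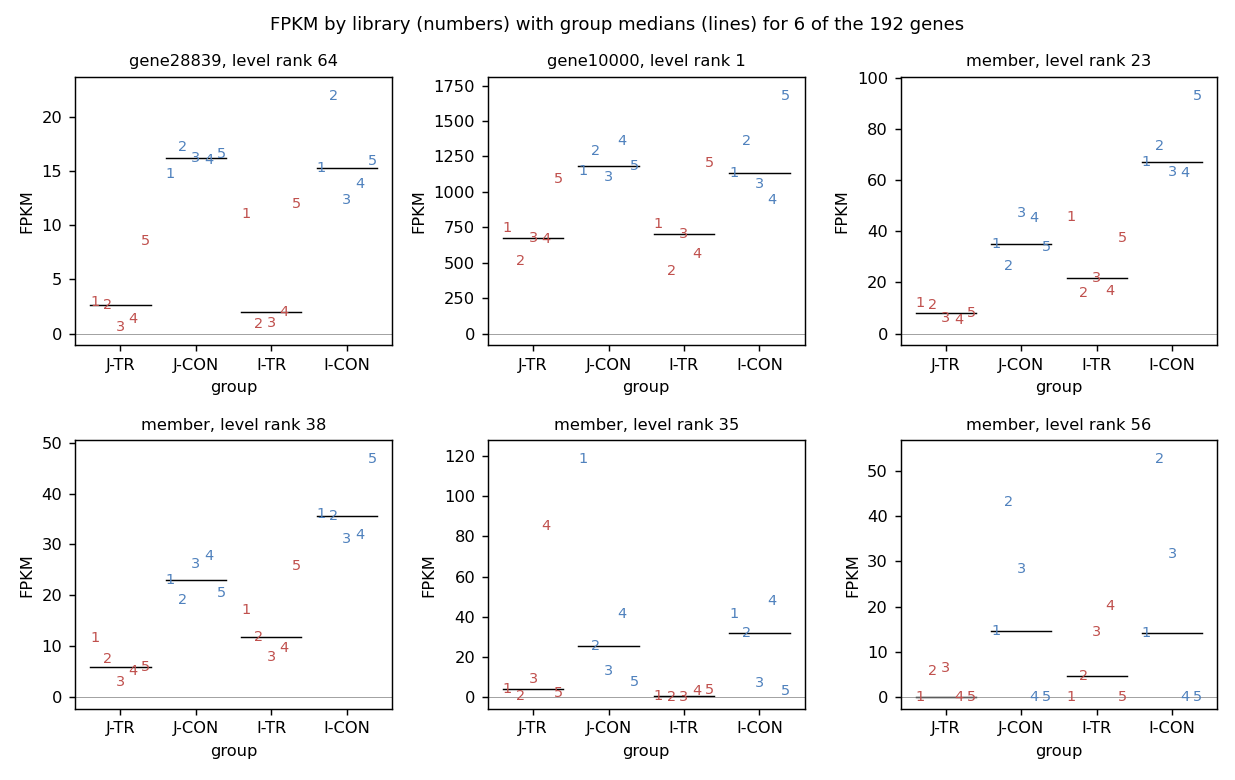
FPKM of 6 of the 192 genes in the 4 groups, each library drawn as its number (red restricted, blue normally fed) and the group median as a line. In the upper left panel the 5 restricted jejunal values of gene28839 run from 0.578 to 8.57 FPKM, all under the 14.7 to 17.2 FPKM of normal feeding; in the lower right panel a gene is listed at 0 in libraries 4 and 5 of both normally fed groups.

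Groups that did not overlap were found for 34 genes in both segments, for 37 in the jejunum alone and for 16 in the ileum alone, while 105 overlapped in each segment. Of all genes tested, 0.505% had restricted libraries wholly below normally fed ones in both segments. The 34 genes spanned 3.24 to 85.0 FPKM under normal feeding, with a median of 15.1 FPKM. Their differences on the log2 scale ran from -2.26 to -0.65 in the jejunum and from -2.44 to -0.60 in the ileum. None of the 7 genes at 100 FPKM or more was among the 34.

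In a limma fit of log2(FPKM + 1) over 12652 jejunal genes, 33 of the 182 members tested passed as lower (Benjamini-Hochberg adjusted p under 0.05), where 0.458% of all genes tested did. Another 10 of the 192 did not reach 1 FPKM in 5 jejunal libraries. Of the tested members 67 did not overlap, against 1.94% of all genes. In the ileum 186 were tested among 12830 genes and 1 passed as lower, against 0.00779% of all genes, and 50 did not overlap, against 1.89%. The rule used these same contrasts, so nothing is read from these counts. The jejunal 33 depended on which libraries were in the fit. There were 21, 6, 6, 6 or 7 with the omission of J-CON library 1, 2, 3, 4 or 5, and 14 or 19 with the omission of J-TR library 3 or 4. The ileal 1 was 3 without I-TR library 5, 1 without I-TR library 3, and 0 without any other single library.

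The libraries were then compared over all 192 genes, each gene set against the normally fed median of its segment. The median gene lay at -0.71, -0.98, -1.11, -0.88 and -0.74 (log2) in J-TR libraries 1 to 5, against -0.07 to 0.14 in the 5 J-CON libraries. In I-TR it lay at -0.73, -1.15, -0.94, -1.14 and -0.38, against -0.08 to 0.18 in I-CON. All 10 restricted libraries were below all normally fed ones on this measure, a direction that the choice of genes sets. The median of the 13279 genes stayed between -0.10 and 0.05 in the restricted libraries.

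I-TR5 was the restricted library nearest to normal feeding. In it 79 of the 192 genes (41.1%) lay below all 5 I-CON libraries, against 126 to 165 in the other I-TR libraries. Over the 13279 genes the share was also lowest there, at 14.9%, against 22.2% to 32.5% in the other I-TR libraries. In J-TR5 the number was 116 (60.4%), against 142 to 167 in the other J-TR libraries, and over the 13279 genes 20.1%, against 19.7% to 32.9%. The jejunal library was also the most mixed, with quartiles at -1.24 and -0.10 on the log2 scale. In J-TR5 42 genes (21.9%) were at or above the J-CON median, against 53.6% of the 13279 genes. In the other J-TR libraries the share of members ran from 0.521% to 8.33%, and that of the 13279 genes from 38.7% to 54.7%. In number 5, 14 genes were at or above the normally fed median in both segments, as compared with 0, 3, 0 and 1 for numbers 1, 2, 3 and 4. The shares of the 13279 genes were 22.5%, 38.7%, 27.7%, 24.2% and 35.8% for numbers 1 to 5, so over all genes number 2 had the highest. The median level of the 14 was 19.0 FPKM, and that of the other members 8.90 FPKM. Conversely, 90 of the 192 were below the normally fed median in all 10 restricted libraries, as were 3.31% of the 13279 genes. The choice of genes bears on each of these counts. Without restricted library 5 of each segment, the rule gave 256 genes, 167 of the 192 among them. This setting was chosen after the values were seen.

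**Figure D3:**
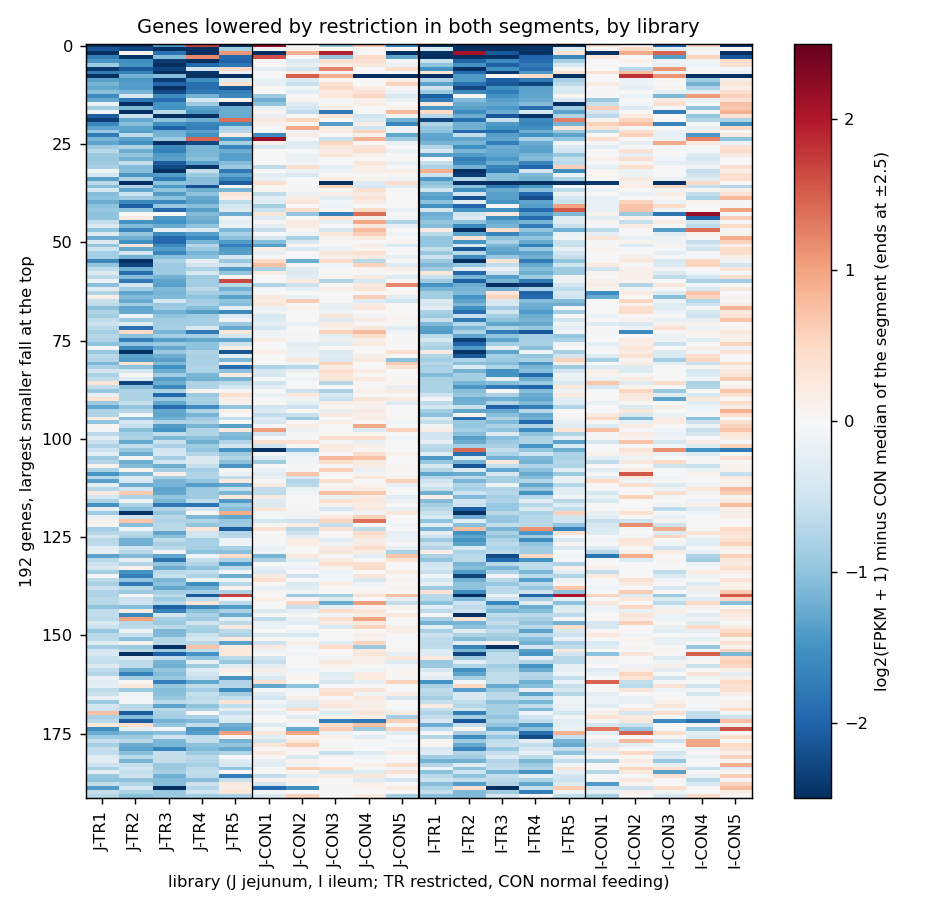
The 192 genes (rows, ordered by the smaller of both differences) in the 20 libraries (columns), as log2(FPKM + 1) minus the normally fed median of the segment; blue is lower, red is higher, and colours end at 2.5. Restricted columns are mostly blue, with paler blue in I-TR5 and a mix of pale and dark rows in J-TR5.

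The 192 genes together took up a smaller part of the restricted libraries, a direction that the choice of genes sets. Their summed level was 0.741% ± 0.173 of all FPKM in J-TR and 1.33% ± 0.064 in J-CON, and 0.799% ± 0.260 in I-TR and 1.53% ± 0.229 in I-CON (SD, n = 5 each). The restricted values ran from 0.533% to 0.999% in the jejunum and from 0.496% to 1.16% in the ileum, without overlap with the normally fed libraries of the segment. The choice of genes bears on this lack of overlap too. In each segment the highest restricted value was that of library 5 and the lowest that of library 2. The first and second gene in level made up 0.296% of all FPKM in J-TR and 0.495% in J-CON, and 0.280% in I-TR and 0.528% in I-CON. Without them the sum averaged 2067 FPKM in J-TR and 3739 FPKM in J-CON, and 2428 FPKM in I-TR and 4554 FPKM in I-CON.

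**Figure D4:**
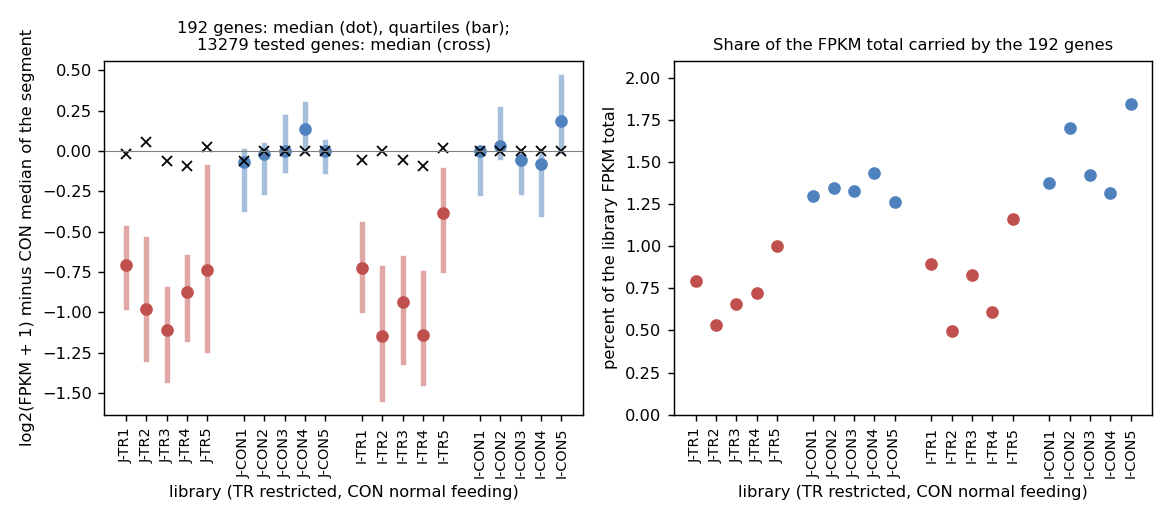
Left, the median (dot) and quartiles (bar) of the 192 genes in each library, as log2(FPKM + 1) minus the normally fed median of the segment, with the median of 13279 genes as a cross; right, the percent of the library's FPKM total that the 192 genes carry. Red is restricted and blue normally fed; the restricted medians run from -1.15 to -0.38 and the crosses stay near 0.

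A small number of the 192 met the rule with very uneven libraries inside each group. The gene ranked 56 in level varied most. It was listed at 0, 5.78, 6.37, 0 and 0 FPKM in J-TR, against 14.6, 43.2, 28.3, 0 and 0 FPKM in J-CON. In the ileum it was listed at 0, 4.62, 14.3, 20.04 and 0 FPKM in I-TR, against 14.1, 52.6, 31.7, 0 and 0 FPKM in I-CON. Normally fed libraries 4 and 5 were at 0 in both segments, as were restricted libraries 1 and 5, while restricted library 4 was at 0 in the jejunum alone. The median of such a gene depends on how many libraries of a group carry it.

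The gene ranked 89 behaved alike, at 0, 7.07, 1.11, 0 and 15.3 FPKM in J-TR, against 0, 13.3, 28.4, 6.71 and 0.387 FPKM in J-CON. The ileum showed 0, 41.8, 1.35, 0 and 12.2 FPKM in I-TR, against 0, 18.5, 27.1, 9.24 and 0.365 FPKM in I-CON. The numbers listed at 0 were equal in both segments. The gene ranked 35 had 3.75, 0.579, 8.80, 85.3 and 1.74 FPKM in J-TR, against 118, 25.5, 12.8, 41.1 and 7.40 FPKM in J-CON. Its ileal values were 0.270, 0.0273, 0.0535, 3.05 and 3.44 FPKM in I-TR, against 41.5, 31.7, 6.84, 47.7 and 3.09 FPKM in I-CON. It had the largest smaller difference of the 192, although its groups overlapped in both segments, through J-TR4 and J-TR3 in the jejunum and through I-TR5 in the ileum.

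In 10 of the 192 (5.21%) the highest library plus 1 FPKM was at least 4 times the lowest plus 1 FPKM within both normally fed groups, as in 1.24% of the 13279 genes. The lowest normally fed library had the same number in both segments in 9 of the 10, and the highest in 6. These genes were set apart after their values were seen, and the choice of the 192 by medians bears on their share.

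Within groups, the levels of the 192 followed the library number across segments. Deviations from the group mean were correlated over the 192 genes, which are not independent replicates. Restricted jejunal and ileal libraries of equal number gave r from 0.449 to 0.641, and normally fed ones from 0.430 to 0.789. Libraries of unequal number gave a median r of -0.17 under both feeds, with a highest r of 0.256 under restriction and 0.168 under normal feeding. Each equal pair thus lay above each unequal pair of its feed. The deviations of a gene cancel out within its group, so a positive r for equal numbers makes the others negative on average. Part of this gap is therefore built in. Under restriction the highest library had the same number in both segments for 100 of the 192 genes (52.1%) and for 42.2% of the 13279 genes, and the lowest for 84 (43.8%) and for 38.7%. Under normal feeding the shares lay closer together, at 28.1% of the 192 and 25.6% of the 13279 genes for the highest library and 29.2% and 26.3% for the lowest. The labels do not say whether equal numbers mark the same ewe. If they do, the jejunal and the ileal difference of a gene are not independent observations.

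The 192 genes varied more within groups than genes in general. A ratio of medians of 5 libraries is met more easily by genes with a large spread, and the part of this choice was not tested. The median SD on the log2 scale was 0.48 in J-TR and 0.29 in J-CON, and 0.52 in I-TR and 0.35 in I-CON. Over the 13279 genes it was 0.28 in J-TR and 0.19 in J-CON, and 0.30 in I-TR and 0.23 in I-CON. The SD was larger under restriction for 148 of the 192 in the jejunum and for 139 in the ileum, as for 75.6% and 72.8% of the 13279 genes. Pairs of the 192 had a median r of 0.22 over the 20 libraries after group means were taken out, and 19.4% of pairs exceeded 0.5. Over all pairs of the 13279 genes the median was 0.02 and 12.9% exceeded 0.5. These libraries are shared by all pairs, and the values are a description.

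Ileum and jejunum were also compared under restriction. The rule took both restricted medians and limited the segment difference under normal feeding, so these values are bounded by the choice of genes and are a description. Under normal feeding 147 of the 192 had a higher mean log2 level in the ileum, as did 65.3% of the 13279 genes. Among 12640 genes fitted with limma, 163 were members, and 119 of them (73.0%) were higher in the restricted ileum than in the restricted jejunum, as were 60.0% of all genes in the fit. Their median log2 difference was 0.25, and that of all genes 0.05. None of the 163 passed (limma, Benjamini-Hochberg), and 0% of all genes did. At an unadjusted p under 0.05, 28 members were higher in the ileum and 2 lower, where 8.12% and 2.94% of all genes were. With the replicate number as a block, 50 members were higher and 8 lower at that level, among 2614 of the 12640 genes, of which 801 were lower. None passed the adjustment in that fit either. Over all genes 129 passed without J-TR2, 96 without I-TR2 and 244 without both. Of the members 3 passed without both, and 1 passed without I-TR2 alone. Fitting the 4 groups together gave 6 members among 266 genes called, and library weights gave 7 among 477. Nothing is read from these member counts.

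Values from libraries that took no part in the choice were read by leaving out each replicate number in turn. The rule was applied to the other 16 libraries, and the genes it gave were read in the restricted and the normally fed library of the number left out. The 5 choices held 172 to 258 genes, and each shared 115 to 151 genes with the 192. In the jejunum 78.7%, 51.1%, 84.3%, 81.3% and 64.8% of these genes were lower in the restricted than in the normally fed library numbered 1 to 5. The shares over all genes tested were 41.7%, 45.7%, 59.7%, 63.3% and 46.9%. In the ileum 72.9%, 59.7%, 76.2%, 83.0% and 76.1% were lower, against 54.2%, 51.1%, 54.8%, 55.4% and 49.3% of all genes tested.

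The share was above that of all genes in each of the 10 readings, by the least for number 2. The median log2 difference was -0.38, -0.03, -0.87, -0.86 and -0.26 in the jejunum and -0.42, -0.29, -0.46, -0.74 and -0.48 in the ileum. For all genes tested the medians ran from -0.15 to 0.07. The differences in left-out libraries were mostly smaller than those of the 192 in the libraries that chose them. The 5 choices share most of their libraries, so these values carry no test.

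**Figure D5:**
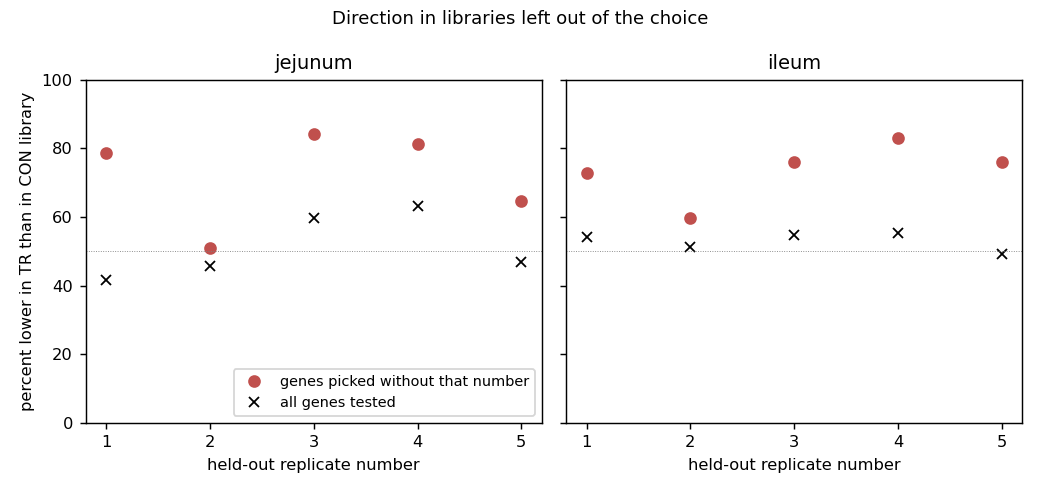
Percent of genes lower in the restricted than in the normally fed library of a replicate number, for genes chosen without that number (red dots) and for all genes tested (black crosses), in jejunum and ileum. The dots lie above the crosses for each number, and nearest to them for number 2, at 51.1% against 45.7% in the jejunum.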

How the data were processed

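Each library has its own table of IDs and FPKM values as the authors deposited them, per the file headers. Per the labels' protocols, Trizol was used for extraction and an NEBNext Ultra kit for the libraries. Which aligner, counting tool, build and annotation were used is not given in the sources used here. Groups and replicate numbers come from the sample titles. Jejunal tables list 18058 IDs and ileal ones 18051. None of the IDs matched the RefSeq gene table (assembly ARS-UI_Ramb_v3.0).

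FPKM values are not counts, so feeding and segment fits used limma (version 3.58.1, R version 4.3.3) with a mean-variance trend on log2(FPKM + 1). The test covered genes that reached 1 FPKM in 5 or more of the 10 libraries compared, with Benjamini-Hochberg adjustment over all of them. Descriptions across all 20 libraries used the 13279 genes that did so in 5 or more of them. Fits, rule and depth estimate were tested on simulated data. The total number of reads is unknown. Relative depth was read from the steps that whole fragments leave in values under 0.08 FPKM, and no intervals that need counts were computed.

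Restricted libraries of equal number deviated together across segments (r from 0.168 to 0.637 over 13279 genes, all above the bound of 0.1). The labels do not give them as pairs, and the replicate number was a block in an alternative fit only. Unequal restricted numbers reached 0.445, above the lowest equal r, so the bound does not tell pairs from other libraries. For normally fed numbers the range was 0.022 to 0.500, and unequal ones reached 0.401.

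The members, the rule for the 2 IDs and all tests were chosen with earlier results of these data known. Alternatives were another pseudocount, filter, scaling, weighting, block or cap, group means, and leaving out libraries.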

Additional observations from a re-analysis of the deposited data

Results flagged for a closer look

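Of 64 groups of 5 libraries examined, 3 held a library far from the other 4. Chance alone gives this in about 1 in 20 groups when values are normally distributed. FPKM values need not be, and genes with large spreads within groups were among those examined, so this rate may not hold here. The gene ranked 5 in level stood at 229 FPKM in I-TR5, against 22.4 to 76.6 FPKM in I-TR libraries 1 to 4. The same gene stood at 470 FPKM in I-CON3, against 136 to 219 FPKM in the other 4 of I-CON. The gene ranked 35 in level stood at 85.3 FPKM in J-TR4, against 0.579 to 8.80 FPKM in the other 4 of J-TR. These library values are given without an explanation.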

How the results depend on the processing

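The number of genes that met the rule was 158 to 225 with any 1 library left out, 174 with group means, 219 with totals made equal and 158 after quantile normalization. Leaving out 1 library kept 148 to 185 of the 192, and 82 met the rule without each of the 20 libraries in turn. Group means kept 122 of the 192. A pseudocount of 0.1 gave 484 genes, a ratio of 5 to 4 gave 691 and a ratio of 2 gave 47.

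Of members called lower, the jejunum had 33 and the ileum 1. The jejunal number was 21 with a filter at 5 FPKM, 56 with library weights and 6 to 43 with 1 library left out. The ileal number was 28 when the 4 groups were fitted together, 4 with library weights, 0 with no filter, with a filter at 5 FPKM or without I-TR2, and 0 to 3 with 1 library left out. With the replicate number as a block it was 0 in both segments. Restricted and normally fed libraries of equal number gave r from -0.57 to 0.40 over 13279 genes. The labels do not say whether equal numbers form pairs across feeds. Between the segments under restriction 0 members passed, with and without the block. There were 6 in that joint fit, 7 with library weights, 3 without both libraries numbered 2 and 0 to 1 with 1 library left out. The cause of these shifts was not tested. The median held-out difference was -0.44, and -0.37 with a pseudocount of 0.1. The differences of gene28839 and gene10000 kept their sign in all 19 alternatives of each segment. Both were taken from genes chosen for this sign, and gene28839 also for groups that did not overlap, so nothing is read from it. Depth cannot be turned into counts here, so precision at low FPKM is unknown.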

Other observations

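The IDs of the 192 genes hold 9 pairs with consecutive numbers, 18 genes in all. What the numbering follows is not given in the sources used here. After group means were taken out, these pairs had a median r of 0.82 over the 20 libraries, and 8 of the 9 exceeded 0.5, against a median of 0.22 over all 18145 pairs of the 191 members with at least 1 FPKM in 5 libraries. The pairs were looked for after the values were seen, and the relation was not tested.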
